A study of Mus musculus with 6 samples.

Results

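The nuclear-encoded subunits of the mitochondrial respiratory chain and of ATP synthase were followed in liver RNA of mice on 2 diets. They were taken by gene symbol: those beginning Ndufa, Ndufb, Ndufc, Ndufs or Ndufv (complex I), Sdha to Sdhd (complex II), Uqcr (complex III), Cox4 to Cox8 (complex IV) and Atp5 (complex V). The rule found 94 of the 24982 genes in the count tables, of which 90 had 10 or more reads summed over the libraries. It also takes 8 symbols beginning Ndufaf, which encode assembly factors of complex I and not subunits, and these are described apart. That leaves 86 subunit symbols, 39 in complex I, 4 in complex II, 8 in complex III, 18 in complex IV and 17 in complex V. Ndufa4 and its paralog Ndufa4l2 stand under complex I by their names, although the Ndufa4 protein is now known as a subunit of complex IV.

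The samples were livers of male C57BL/6NJ mice, with 3 libraries from chow-fed animals and 3 from animals given a high fat diet together with sugar in the drinking water (high fat - high sugar, HFHS for short), each for 54 weeks. No transgene or other agent is labelled in either group, and neither the age at the start nor whether any sample held tumour tissue is given. PolyA RNA was sequenced. The labels do not state that every library is a separate animal, so p-values measure the spread between these libraries.

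The respiratory chain passes electrons from NADH (complex I) or succinate (complex II) through ubiquinone to complex III, then by cytochrome c to complex IV, which reduces oxygen. Complexes I, III and IV pump protons, and complex V uses the gradient to make ATP. All complexes except II combine subunits made from nuclear genes with a few made inside the mitochondrion. The hepatocyte is rich in mitochondria, and in it the chain oxidises the NADH and FADH2 of fatty acid breakdown.

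Gene counts came to between 16565335 and 20585366 per library. Hepatocyte markers, 11 of 12 of which were found, summed to between 51384 and 129379 CPM (counts relative to a standard library total, with totals scaled by TMM, a factor that evens out the bulk of genes between libraries). Scaling matters here: TMM factors were 0.897 to 0.945 in chow and 1.02, 1.26 and 1.01 in HFHS replicates 1, 2 and 3. Replicate 2 of that diet stood apart on the first principal component, at 78.2 against 31.9 and 26.2. Reads that fitted several genes were 0.766% to 0.862% of all counts in chow and 0.615% to 0.698% in the other diet.

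Transcripts of the chain were lower after the HFHS diet in most members, and the medians of complexes I to V lay close together. Of 86 members tested, 84 had a negative log2 fold change and 2 a positive fold change, with a median of -0.41, a change of -24.5%, against -0.02 over all 12949 tested genes. By edgeR's quasi-likelihood test, 11 members fell past a Benjamini-Hochberg adjusted p of 0.05, over all tested genes, where 3.61% of genes fell. No member rose past it (0 members by edgeR, DESeq2 or limma-voom), where 11.0%, 14.0% and 7.7% of genes rose in that order. At an unadjusted p under 0.05, 50 members were lower and 0 higher, where 12.8% and 19.5% of genes were. In 68 members all 3 HFHS libraries lay below all 3 chow libraries, where 18.0% of genes did so, and in 1 they lay above, where 21.5% did. Each tested member had at least 14 counts in every library.

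The size of the difference depends on how libraries are scaled and on which libraries are kept. With library size only, the median over all genes moved to 0.25, that of members to -0.16, and 72 of 86 members stayed negative. The gap between the members' median and that of all genes was -0.38 with TMM and -0.40 with library size only. A scaling factor moves all genes of a library alike, so this gap could hardly change and does not test the fall. With library size only, 2 members fell past the threshold, where 1.54% of genes did. On that scale 35 members had all libraries of the diet below chow, where 5.44% of genes did. Leaving out chow replicates 1, 2 and 3 in turn left 1, 1 and 0 members lower by edgeR, with 24, 41 and 30 at an unadjusted p under 0.05 and medians of -0.39, -0.43 and -0.42. Of all genes 1.33%, 0.85% and 0.015% were then lower. The members' count was 1, 7 and 37 when HFHS replicates 1, 2 and 3 were left out, where 2.23%, 3.01% and 5.83% of genes were lower. DESeq2 called 36 members lower, where it called 7.53% of genes, and limma-voom 6 (2.88%). RLE scaling gave 13 (3.86%), upper-quartile scaling 7 (2.53%), no filter 12 (2.83%) and the replicate number as a block 5 (2.18%).

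Libraries of the HFHS group differed among themselves in much the same order in most members. Replicate 2 was the lowest of all 6 libraries in 81 of 86 members (in 27.8% of all tested genes) and replicate 3 the highest of its diet in 76 (in 33.3% of all tested genes). With library size only, replicate 2 was the lowest in 45 members. The median log2 ratio to the chow mean over the subunits was -0.36, -0.71 and -0.21 in replicates 1, 2 and 3. In chow it was 0.05, -0.04 and -0.01. The members' median fold change was -0.27 without replicate 2 and -0.53 without replicate 3. As a plain share of gene counts, the 94 symbols took 1.39%, 1.41% and 1.36% in chow and 1.23%, 1.18% and 1.36% in the HFHS group, so on that scale chow replicate 3 and HFHS replicate 3 were alike.

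In bulk liver, fewer hepatocytes and less RNA per hepatocyte cannot be told apart. Hepatocyte markers had a median log2 fold change of -0.70 over 11 tested, with 2 lower, and stood at -0.41, -1.12 and -0.57 in the 3 HFHS libraries relative to chow. Macrophage markers (10 of 10 higher) stood at 1.52, 2.34 and 1.43, and stellate cell and fibroblast markers (8 of 9 higher) at 1.27, 1.95 and 1.18. Of all tested genes 3.61% were lower and 11.0% higher. The library lowest in respiratory chain transcripts, replicate 2, was thus also lowest in hepatocyte and highest in macrophage and fibroblast markers. Bile duct markers were highest in it as well, at 1.80, 2.98 and 1.61, but endothelial markers were lowest, at 0.95, 0.60 and 1.02. Between replicates 1 and 3, the chain was higher in 3 and hepatocyte markers were higher in 1. Calls of markers, too, were lost without chow replicate 3, a fit in which 0.015% of all genes were lower. Adgre1, the macrophage marker with the smallest p, then had an adjusted p of 0.0528 by edgeR. Its log2 fold change moved less, between 2.06 and 2.50 over the 13 alternative settings. The part of these cells in the result was not tested.

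**Figure D1:**
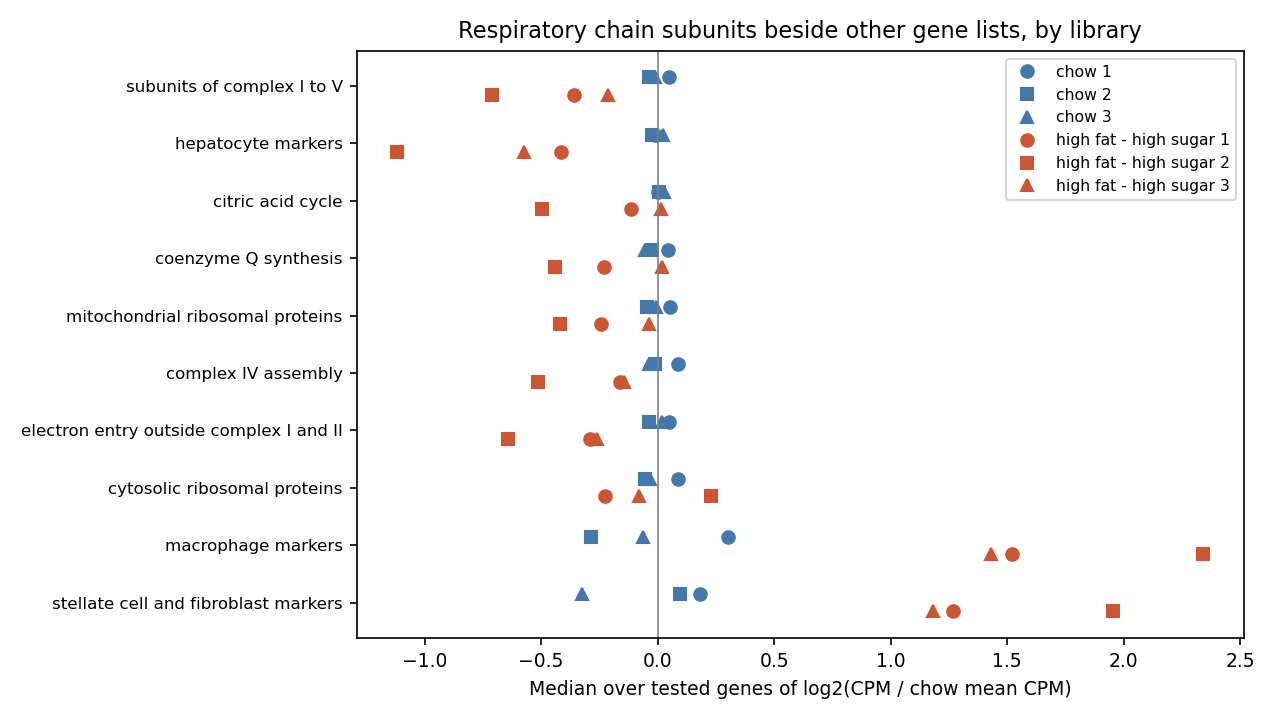
Median over the tested genes of each list of the log2 ratio of CPM to the chow mean, 1 point per library. Subunits of complexes I to V lie at -0.36, -0.71 and -0.21 in the HFHS libraries, and the order of these libraries is the same for mitochondrial ribosomal proteins, while replicate 2 is the highest for macrophage markers.

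By complex, the mean summed level of all members after the diet was between 0.743 and 0.790 of chow, and with this scaling every HFHS library was below every chow library in each of the complexes I to V. As a plain share of gene counts, the diets overlapped in complexes II, IV and V. Complex V then took 0.477%, 0.504% and 0.487% in chow and 0.454%, 0.428% and 0.493% in the HFHS group, where replicate 3 was above chow replicates 1 and 3. Complex IV took 0.195% to 0.209% in chow and up to 0.203% in HFHS replicate 3. Complexes I and III stayed apart on that scale, complex III by a narrow gap. In CPM, complex I summed to 4199, 3933 and 4044 CPM in chow and to 3133, 2477 and 3489 CPM in the HFHS group. Complex II summed to 1514, 1585 and 1575 CPM and to 1273, 868 and 1345 CPM. Complex III went from 1840 ± 48.8 to 1367 ± 260.0 CPM (SD, n = 3). Complex IV went from 2217 ± 96.8 to 1680 ± 307 CPM (SD, n = 3), and complex V from 5354 ± 66.0 to 4227 ± 757 CPM (SD, n = 3). The spread was several times wider after the diet than in chow in every complex. No test was made on these sums.

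**Figure D2:**
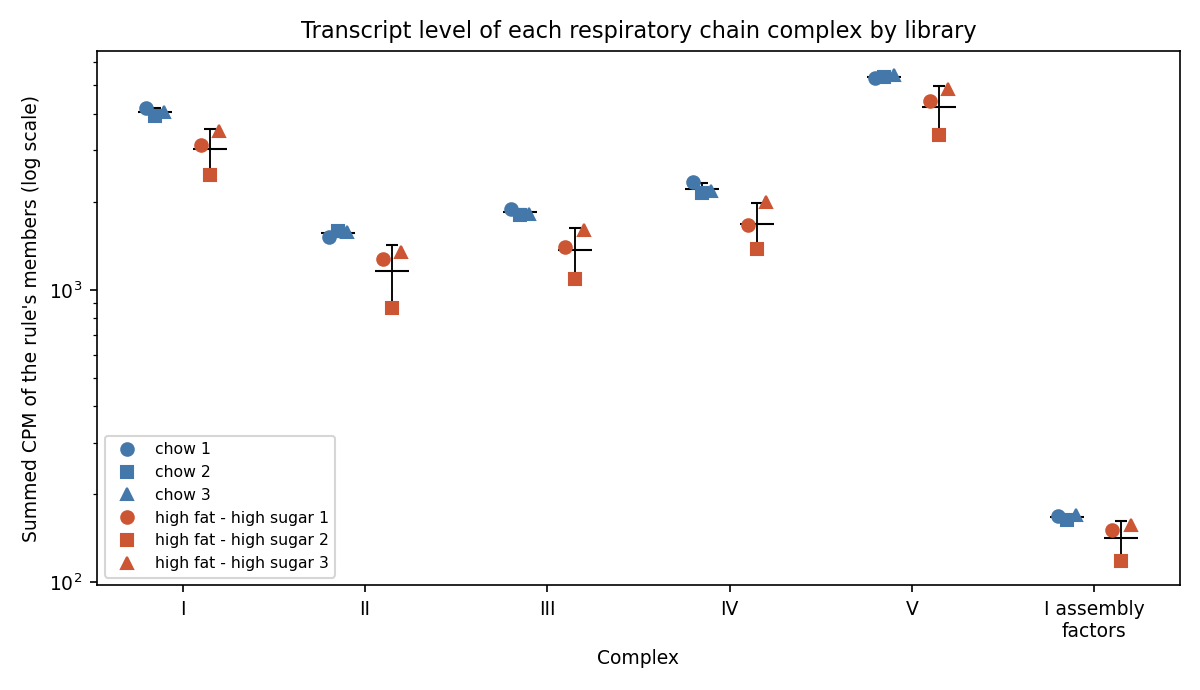
Summed CPM of the members of each complex on a log axis, 1 point per library, with the mean (wide bar) and SD of each group of 3. In complexes I to V the HFHS libraries, scaled by TMM, all lie below the chow libraries, and replicate 2 is the lowest throughout.

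Median log2 fold changes were -0.44 in complex I (37 members tested), -0.39 in complex II (4), -0.43 in complex III (8), -0.41 in complex IV (12) and -0.35 in complex V (17). The assembly factors of complex I had a median of -0.25 (8). Members past the threshold numbered 7 in complex I and 1 each in complex III, complex IV, complex V and the assembly factors, where 3.61% of all tested genes were lower. Complex II had 0 by edgeR, with 2 lower at an unadjusted p under 0.05 and 2 by DESeq2, where 12.8% and 7.53% of genes were. In sets this small, a count of 0 or 1 is not read as a result for that complex. Differences between complexes were not tested.

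**Figure D3:**
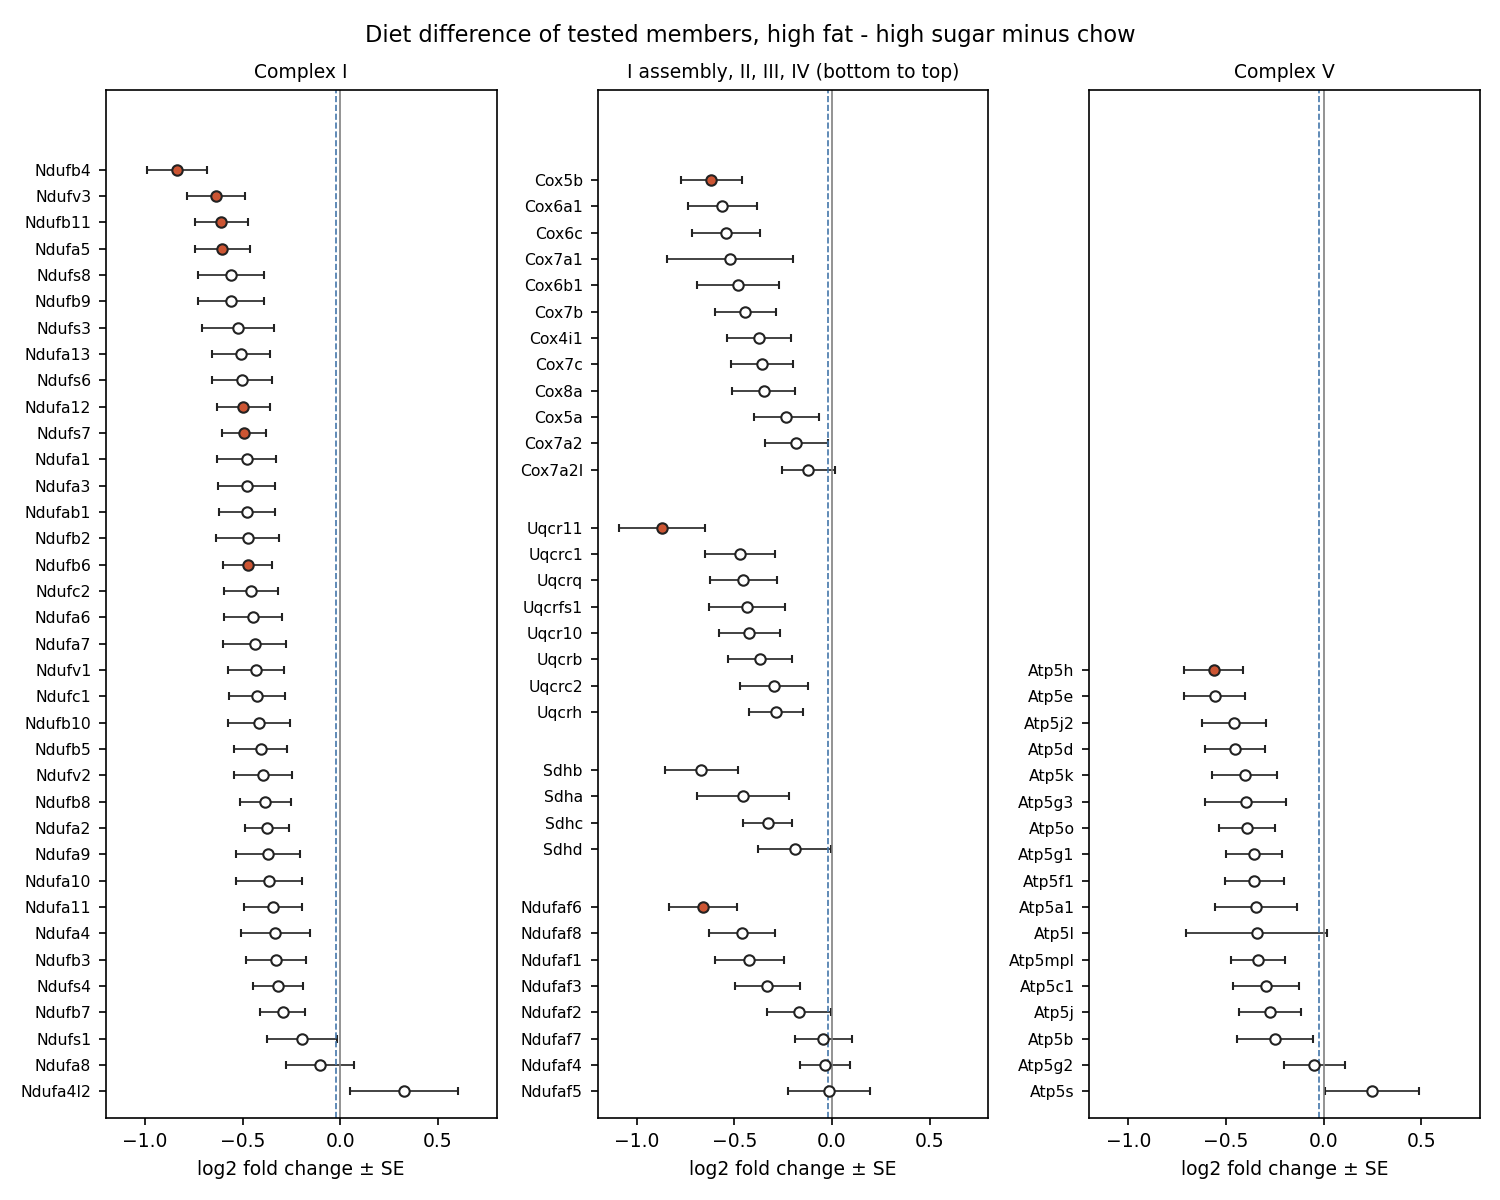
Log2 fold change of the tested members but 1, HFHS minus chow, with its standard error; filled points passed an adjusted p of 0.05, the solid line marks 0 and the dashed line the median of all genes. All but 2 points, Ndufa4l2 and Atp5s, lie left of 0, and the 11 filled ones reach from -0.87 (Uqcr11) to -0.47 (Ndufb6).

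Complex I is the largest complex of the chain, with a peripheral arm that takes electrons from NADH and a membrane arm that pumps protons. Ndufb4, a small accessory subunit of the membrane arm (chromosome 16, 37647602 to 37654368), had the largest fall in it. It stood at 37.2, 28.4 and 28.3 CPM in chow and at 17.1, 15.7 and 19.8 CPM in the HFHS group, with no overlap. The log2 fold change was -0.84 ± 0.15 (SE; adjusted p = 0.0163 by edgeR). It kept its call under 12 of 13 alternative settings and lost it without chow replicate 3, with a range of -0.94 to -0.58. The other members past the threshold kept theirs under 4 to 9 of these settings. Of its 50-base windows of coding transcripts 37.0% recur in transcripts of other genes, copies among them, so the split of its reads is uncertain. The same holds to a lesser degree for other members past the threshold. Shared windows were 36.9% in Atp5h, 31.6% in Ndufb6, 26.2% in Ndufa12, 21.8% in Cox5b, 17.5% in Ndufb11 and 10.9% in Uqcr11. In Ndufs7, Ndufv3, Ndufa5 and Ndufaf6 they were 0%.

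Ndufb11, also of the membrane arm and encoded on chromosome X (20615326 to 20617619), was at 129, 123 and 123 CPM in chow and at 82.4, 69.2 and 94.7 CPM after the diet. It fell by 0.61 on the log2 scale (SE 0.14). Ndufb6, of the same arm, went from 88.2 ± 1.90 to 63.5 ± 8.84 CPM (SD, n = 3), or -0.47 ± 0.12 (SE; adjusted p = 0.0437 by edgeR). In both genes the groups did not overlap. Of the peripheral arm, Ndufv3, the smallest subunit of the flavoprotein part that binds NADH, was at 91.7, 82.1 and 85.4 CPM in chow and at 53.5, 46.5 and 66.8 CPM after the diet (-0.64 ± 0.15, SE). Ndufa5, an accessory subunit of the part that reduces ubiquinone, went from 69.8 ± 4.78 to 46.0 ± 7.48 CPM (SD, n = 3; -0.60 ± 0.14, SE). Ndufa12, another accessory subunit of the peripheral arm, went from 39.5 ± 1.91 to 28.0 ± 4.36 CPM (SD, n = 3; -0.50 ± 0.13, SE; adjusted p = 0.0479 by edgeR). These 3 genes, too, had each library of the diet below each chow library.

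The redox core of complex I made from nuclear genes includes the subunits that carry the flavin and iron-sulfur clusters. Within this core, Ndufs7, which holds the last cluster before ubiquinone, fell, from 65.8, 65.6 and 67.6 CPM to 45.5, 42.9 and 53.3 CPM. Its log2 fold change was -0.49 ± 0.11 (SE; adjusted p = 0.0289 by edgeR). The core subunits that follow, not all of which carry a flavin or cluster, did not pass. Ndufs8 was at -0.56 ± 0.17, Ndufs3 at -0.52 ± 0.18, Ndufv1, the flavin and NADH site, at -0.43 ± 0.14 and Ndufv2 at -0.40 ± 0.15 (log2 fold change, SE). Ndufs1, the largest subunit, which holds several clusters, was nearest to 0 of those named, at -0.20 ± 0.18 and overlapped: it stood at 179, 198 and 200 CPM in chow and at 190, 127 and 187 CPM after the diet.

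Among the assembly factors, Ndufaf6, needed early in building complex I, fell from 19.3, 14.2 and 18.2 CPM to 11.2, 9.04 and 12.5 CPM (-0.66 ± 0.17, SE; adjusted p = 0.0441 by edgeR). Ndufaf1, the most abundant of them per kb of exon (25.6 CPM per kb in chow), was at 37.9 ± 1.42 and 28.3 ± 7.05 CPM (SD, n = 3), which did not pass. Ndufaf7, Ndufaf4 and Ndufaf5 lay at -0.04, -0.03 and -0.01 on the log2 scale, nearest to 0 of all members with a negative value, and Ndufaf5 turned positive under 5 of the 13 settings.

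Complex II, succinate dehydrogenase, belongs to the citric acid cycle as well as to the chain and is made wholly from nuclear genes. Sdhb, its iron-sulfur subunit (chromosome 4, 140961271 to 140979198), stood at 269, 263 and 282 CPM in chow and at 189, 127 and 197 CPM after the diet. The groups did not overlap and the log2 fold change was -0.67 ± 0.19 (SE), but the adjusted p of 0.0528 by edgeR missed the threshold. It was 0.0482 with RLE scaling, 0.0472 with no filter and 0.0348 without HFHS replicate 2. Sdha, the flavoprotein that oxidises succinate, was at 754, 844 and 800 CPM and at 644, 399 and 705 CPM (-0.46 ± 0.24, SE). The membrane anchor Sdhc was at -0.33 ± 0.13 and the other anchor Sdhd at -0.19 ± 0.19 (SE), and neither passed. Sdhd overlapped, at 247, 248 and 246 CPM in chow and at 249, 161 and 240 CPM after the diet.

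In complex III, which hands electrons from ubiquinol to cytochrome c, Uqcr11 had the most negative fold change of all 86 members. This gene encodes a small accessory subunit (chromosome 10, 80402997 to 80406821). It stood at 196, 162 and 163 CPM in chow and at 103, 65.5 and 117 CPM in the HFHS group, without overlap. The log2 fold change was -0.87 ± 0.22 (SE; adjusted p = 0.0386 by edgeR), and -0.63 with library size only, where it still passed. The other 7 members lay between -0.47 and -0.28, did not pass, and had no overlap between diets. Among them the Rieske iron-sulfur protein Uqcrfs1 was at 264 ± 8.01 and 196 ± 47.0 CPM (SD, n = 3), and Uqcrh, a hinge protein by the cytochrome c site, at 182 ± 5.03 and 149 ± 19.8 CPM (SD, n = 3). Per kb of exon, Uqcr11 was above Uqcrh in chow (390.4 and 332 CPM per kb) and below it after the diet (214 and 273 CPM per kb).

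Complex IV, cytochrome c oxidase, has subunits with tissue-restricted isoforms. Cox5b, a subunit on the matrix side (chromosome 1, 36691487 to 36693388), was very even in chow, at 133, 133 and 132 CPM, and stood at 90.2, 68.0 and 102 CPM after the diet. It fell by 0.62 on the log2 scale (SE 0.16). The widely expressed forms did not pass: Cox6a1 was at -0.56 ± 0.18, Cox6b1 at -0.48 ± 0.21, Cox7b at -0.44 ± 0.16, Cox4i1 at -0.37 ± 0.17, Cox8a at -0.35 ± 0.16 and Cox7a2 at -0.18 ± 0.16 (log2 fold change, SE). Cox4i1, which stabilises the enzyme and was the most abundant member of the complex per kb of exon (595 CPM per kb in chow), stood at 471, 450.4 and 445 CPM and at 330, 311 and 414 CPM, without overlap. Cox7a2l, a factor that joins complexes III and IV in supercomplexes, was at 80.9, 67.5 and 73.8 CPM and at 58.6, 68.5 and 77.5 CPM, with overlap (-0.12 ± 0.14, SE).

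Isoforms of muscle, brown fat, lung and testis were near or at the limit of detection. The muscle form Cox7a1 was at 1.47 ± 0.0215 CPM in chow and 1.03 ± 0.308 CPM after the diet (SD, n = 3), short of the threshold. Cox4i2, the form of lung and of vascular mural cells, had counts of 0, 0 and 1 in chow and 3, 6 and 5 after the diet, which is 11.3 times as many relative to depth (95% counting interval 1.72 to 477). The muscle form Cox6a2 had 1 count in chow and 11 after the diet (8.87, interval 1.29 to 382), of which 8 lay in replicate 2. The testis form Cox6b2 had 0 in chow and 11 after the diet, at least 2.96-fold higher, taking 3 counts in chow as a whole for the floor. Cox8b, of muscle and brown fat, had 31 counts in chow, 20 of them in replicate 2, and 10 after the diet (ratio 0.26, interval 0.114 to 0.545). These 4 were too low for the filter. Tested with no filter, edgeR gave them adjusted p values of 0.0925, 0.190, 0.0700 and 0.111, in the order named. The intervals cover counting error only. Cox7b2 had 1 count in all, and Cox8c and Ndufb4c had 0. Ndufs5, a subunit of complex I that is no tissue isoform, was also listed at 0 in every library. Of its 50-base windows 21.7% recur in transcripts of BC002163, and the others recur in no other gene. How reads that align at several places were counted is not given. The 0 of Ndufs5 is not read as absence, and its cause was not tested.

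Smooth muscle and pericyte markers stood beside Cox4i2: 3 of 7 tested were higher, where 11.0% of all genes were. Their summed level was 70.1 to 98.2 CPM in chow and 135 to 180.4 CPM after the diet. Of them Abcc9, a pericyte channel subunit, went from 24.7 ± 1.66 to 53.9 ± 3.03 CPM (SD, n = 3), a call that it lost without chow replicate 3. Ndufa4l2, known from pericytes and from hypoxia, was at 1.06, 1.04 and 0.942 CPM in chow and at 1.29, 1.15 and 1.40 CPM after the diet. Its groups did not overlap, yet it did not pass (0.33 ± 0.28, SE). Its abundant paralog Ndufa4 was at 348, 306 and 304 CPM and at 258, 206 and 297 CPM (-0.33 ± 0.17, SE), which did not pass. Of hypoxia-responsive genes 1 of 17 rose, the collagen prolyl hydroxylase P4ha1 (0.82 ± 0.17, SE), and 1 fell, Mxi1 (-0.51 ± 0.13, SE), where 11.0% of all genes rose and 3.61% fell. Both calls were lost without chow replicates 1, 2 or 3, and that of Mxi1 also without HFHS replicates 1 or 2. Muscle markers summed to 2.69 to 4.11 CPM in chow and 6.14 to 10.6 CPM after the diet, with 2 of 12 at 0, and the gene of that list high enough to be tested, Des, is also a stellate cell marker. Testis germ cell markers summed to between 0 and 0.0769 CPM, with 5 of 6 at 0. The part of these cells in the isoform counts was not tested.

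Complex V, ATP synthase, has a catalytic head, a rotor and a peripheral stalk that holds the head still. Atp5h, subunit d of the stalk (chromosome 11, 115415691 to 115419919), was at 207, 195 and 207 CPM in chow and at 139, 114 and 159 CPM after the diet. It fell by 0.56 on the log2 scale (SE 0.15; adjusted p = 0.0464 by edgeR). Transcripts of other genes share 36.9% of its windows. Atp5e, the small epsilon subunit of the head's central stalk, lay just outside the threshold (-0.56 ± 0.16, SE; adjusted p = 0.0514 by edgeR). The catalytic subunit Atp5b, the most abundant member of all per kb of exon (749 CPM per kb in chow), stood at 1353, 1487 and 1467 CPM and at 1281, 990.3 and 1360 CPM, with overlap (-0.25 ± 0.19, SE), and lay at 0.00 with library size only. Atp5s, a coupling factor now named Dmac2l, was the other member with a positive value: it was at 7.67, 7.91 and 7.67 CPM in chow and at 6.25, 12.3 and 9.04 CPM after the diet, and at -0.01 on the log2 scale without HFHS replicate 2. Atp5l was counted at 1.21 to 1.67 CPM in chow, the lowest of complex V, and 84.8% of its windows recur in other genes' transcripts.

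Within a complex, the share that each member takes of the complex's counts needs no scaling between libraries. The shares of a complex add up to its whole, so a larger fall in some members raises the shares of others without a rise in their level. Uqcr11 took 10.3%, 9.02% and 8.94% of complex III counts in chow and 7.32%, 6.01% and 7.31% after the diet. Sdhb took 17.7%, 16.6% and 17.9% of complex II and then 14.8%, 14.6% and 14.6%. The share of Sdhd moved the opposite way, from 16.3%, 15.7% and 15.6% to 19.6%, 18.5% and 17.9%. In complex I the share of Ndufb4 went from 0.887%, 0.721% and 0.699% to 0.545%, 0.635% and 0.568%, and that of Ndufs1 from 4.27%, 5.04% and 4.94% to 6.06%, 5.12% and 5.37%. In these 5 genes the shares did not overlap between diets. The CPM of Sdhd and Ndufs1 did overlap, at log2 fold changes of -0.19 and -0.20. In complex IV, Cox7a2l took 3.48%, 3.14% and 3.40% in chow and 3.53%, 4.95% and 3.88% after the diet, highest in replicate 2, while Cox5b went from 5.73% to 6.17% down to 4.91% to 5.43%. Over all complexes and the assembly factors, the shares of 17 of 86 tested members were lower in every library of the diet than in any chow library, and 13 were higher. These counts have no counterpart over all genes, since a share is defined only within a complex. They were not tested. Across members, the fold change had a Spearman correlation of 0.17 and a Pearson correlation of 0.18 with log2 exon length (86 genes of the same libraries, which are not independent).

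**Figure D4:**
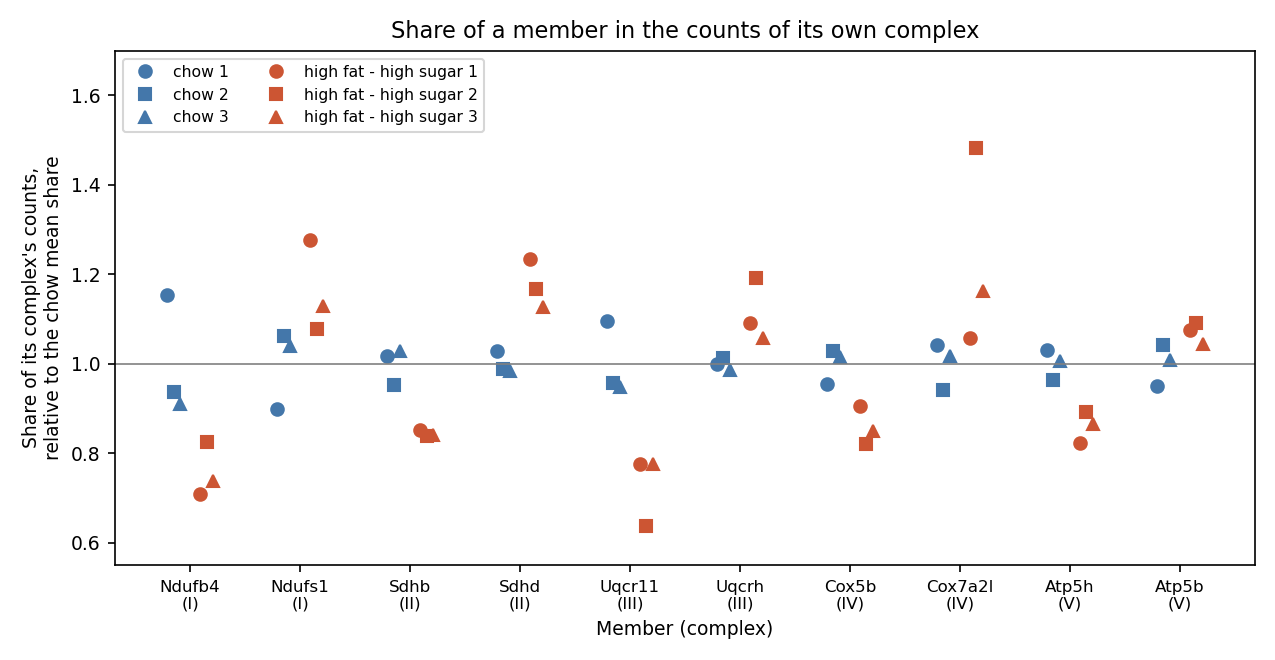
Share of 10 members in the counts of their own complex, divided by the mean chow share, 1 point per library. Uqcr11, Sdhb and Ndufb4 lie below all chow libraries in each HFHS library, Sdhd and Ndufs1 above them, and Cox7a2l is highest in replicate 2.

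Genes of nuclear-encoded subunits are known to be driven from promoters with binding sites for NRF1 and for GABP, a factor of the ETS family. RefSeq promoter windows on mm10, 250 bases before to 50 after the start, were matched for 76 of the 94 symbols. The NRF1 motif, searched on both strands like the others, was found in 23.7% of them, in 10.3% of 10225 tested genes and in 4.78% of all 27025 promoters. The ETS motif CCGGAAG was found in 22.4%, 17.9% and 9.12%, in the same order, and the YY1 motif in 6.58%, 2.10% and 0.899%. The ERR motif TCAAGGTCA stood in 2 members and the CRE motif TGACGTCA in 4. Members' windows had a median GC content of 58.5% against 52.7% over all promoters. Of the 10 members past the threshold with a window, 3 held the NRF1 motif and 3 the ETS motif, and of the 62 other tested members 14 held each. A match describes the letters only.

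The following stretches lie before the start of 3 genes that fell, Uqcr11 and Ndufb4 with the lowest fold changes and Atp5h of complex V, with matches in capitals (ETS in Uqcr11, NRF1 in Atp5h and Ndufb4). All are read 5′ to 3′ on the minus strand of mm10: Uqcr11 at chr10:80406861-80406960, Atp5h at chr11:115420031-115420130 and Ndufb4 at chr16:37654530-37654618.
Uqcr11: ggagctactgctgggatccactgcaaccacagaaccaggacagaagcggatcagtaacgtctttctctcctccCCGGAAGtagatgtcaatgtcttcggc
Atp5h: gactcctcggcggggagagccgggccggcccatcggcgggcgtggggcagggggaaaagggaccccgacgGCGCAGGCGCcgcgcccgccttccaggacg
Ndufb4: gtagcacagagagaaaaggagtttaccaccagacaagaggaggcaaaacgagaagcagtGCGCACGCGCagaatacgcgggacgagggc

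Regulators of these genes did not pass the test (0 of 17 by edgeR), where 3.61% of all tested genes were lower and 11.0% higher. At an unadjusted p under 0.05, 4 were lower and 1 higher, where 12.8% and 19.5% of all tested genes were. Gabpa, the DNA-binding chain of GABP, was at 70.7, 84.9 and 76.2 CPM in chow and at 61.8, 56.6 and 58.1 CPM after the diet, without overlap, and missed the threshold (-0.39 ± 0.11, SE; adjusted p = 0.0518 by edgeR). It passed with RLE scaling and by DESeq2. The coactivator Ppargc1a was at 19.9, 12.7 and 20.1 CPM and at 18.3, 10.9 and 9.99 CPM, with overlap. Nrf1 was at 0.14 ± 0.18, Esrra at -0.15 ± 0.12 and Tfam, the mitochondrial transcription factor, at -0.22 ± 0.12 (log2 fold change, SE). Esrra and Tfam were positive with library size only, at 0.11 and 0.03.

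Lists of other mitochondrial genes had negative medians too. Mitochondrial ribosomal proteins had a median log2 fold change of -0.22 over 78 genes with 2 lower, Mrpl14 (-0.61 ± 0.10, SE) and Mrpl51 (-0.43 ± 0.11, SE). Of all tested genes 3.61% were lower, and 12.8% were lower at an unadjusted p under 0.05, the shares to set beside the counts that follow. Citric acid cycle enzymes had a median of -0.13 over 18, with 0 past the threshold by edgeR and 1 lower at an unadjusted p under 0.05 (Idh3b, -0.43 ± 0.16, SE). Coenzyme Q synthesis stood at -0.17 over 13 with 0 past it and 3 lower at an unadjusted p under 0.05, of which Coq8b had the smallest p (-0.48 ± 0.13, SE). Assembly factors of complex IV stood at -0.27 over 22 (0 past it, 5 lower at an unadjusted p under 0.05, led by Cmc1 at -0.61), those of complexes II and III at -0.21 over 10 (0 past it, 2 lower, with the smallest p in Sdhaf3) and those of complex V at -0.27 over 3 (0 past it and 0 at an unadjusted p under 0.05). With library size only, the medians of the ribosomal, citric acid cycle, coenzyme Q and complex II and III lists were positive, at 0.04, 0.12, 0.08 and 0.05, while those of complexes I to V stayed negative. Also negative by that scaling were the assembly lists of complexes IV and V (-0.02 and -0.01) and hepatocyte markers (-0.48). So were the complex I assembly and electron entry lists of the next paragraph, at -0.06 and -0.13. The electron carriers and subunits outside the rule, also of the next paragraph, were positive by it, at 0.09. The differences between lists were not tested.

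Outside the rule, assembly factors of complex I had a median of -0.30 over 12. Of these Dmac2, which helps build the far end of the membrane arm of complex I, fell (-0.64 ± 0.12, SE). Usmg5, a small membrane subunit of ATP synthase, fell as well (-0.61 ± 0.17, SE). It and Cyc1, below, belong to a list of electron carriers and subunits outside the rule, with a median of -0.15 over 8. That median was 0.09 with library size only and 0.04 without HFHS replicate 2. Sqor, which feeds electrons from sulfide into ubiquinone, fell from 257 ± 40.5 to 165 ± 17.3 CPM (SD, n = 3; -0.64 ± 0.17, SE), in a list of other entry points with a median of -0.38 over 10. Cyc1, the cytochrome of complex III, was at 224 ± 7.98 and 174 ± 37.4 CPM (SD, n = 3), which did not pass. Against these, 2 of 9 tested carriers and uncouplers rose, where 11.0% of all genes did. Ucp2, an inner membrane carrier of the uncoupling protein family that macrophages express, was among them (1.65 ± 0.40, SE). It was at 32.7, 18.0 and 24.1 CPM in chow and at 49.4, 126 and 59.5 CPM after the diet. Macrophage markers summed to 1180, 2059 and 1082 CPM in the HFHS libraries, also highest in replicate 2, with replicates 1 and 3 in the other order. The part of macrophages in the rise of Ucp2 was not tested. Slc25a4, the muscle form of the ADP/ATP carrier, went from 5.69 ± 0.370 to 13.7 ± 3.52 CPM (SD, n = 3; 1.27 ± 0.21, SE). All 7 genes named as past the threshold in this and the foregoing paragraph lost it without chow replicate 3. Without chow replicate 2 it was also lost by all of them but Mrpl14, and without chow replicate 1 by Ucp2, Usmg5, Sqor and Mrpl51. Usmg5, Sqor and Mrpl51 lost it without HFHS replicate 1 as well, and Sqor and Mrpl51 without HFHS replicate 2.

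Cytosolic ribosomal proteins, which like many members are short and abundant transcripts, had a median of -0.01 over 78 tested, with 0 past the threshold by edgeR. At an unadjusted p under 0.05, 3 were lower, where 12.8% of all tested genes were, and of these Rps27l (-0.47 ± 0.14, SE) had the smallest p. Relative to chow the list stood at -0.23, 0.23 and -0.08 in the HFHS replicates, so it was highest in replicate 2, where the respiratory chain was lowest.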

How the data were processed

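Liver polyA RNA of 6 libraries, 3 per diet, was analysed from deposited whole-number counts of reads per gene symbol, 1 table per library, without normalisation. STAR and mm10 are named in the submitters' processing notes. Which program, annotation and strand setting made the counts is not given in the sources used here, nor is any batch. Rows for reads outside genes (7.74% to 10.6% of counts) or fitting several genes were left out.

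Here, genes were filtered with filterByExpr (minimum count 10), which left 12949 of 17877 genes with a count, scaled by TMM and tested for diet with edgeR's robust quasi-likelihood F test, without covariates (edgeR 4.0.16, limma 3.58.1, DESeq2 1.42.0, R 4.3.3), with Benjamini-Hochberg adjustment over all tested genes. The SE is the log2 fold change divided by the square root of F. CPM use TMM-scaled library sizes, and exon lengths are merged coding-transcript exons of GENCODE M21. Gene spans and promoters come from RefSeq on GRCm38.p6 (mm10). The 13 alternatives were 3 scalings, no filter, DESeq2, limma-voom, a replicate block and each library left out. The scripts were tested on simulated counts. A counting interval is exact at 95%, and 3 counts, the floor, equal 0.115 to 0.202 CPM. Libraries of a group differed by more than sampling noise.

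Members past the threshold, the largest rise and fall and the most abundant member of each complex, tissue isoforms and the redox core were named by rule. The values of 1 member are not reported here, though it enters the counts and medians. The members and lists were chosen with earlier results of these data known.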

Additional observations from a re-analysis of the deposited data

How the results depend on the processing

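Medians of complexes I to V stayed negative under all 13 settings. With library size only they were -0.18 for complex I, -0.10 for complex V, -0.16 for all members and -0.000735 for the assembly factors. Over the 6 settings that left out a library, the count of members lower ranged from 0 (edgeR without chow replicate 3, with 30 at an unadjusted p under 0.05) to 37, and by complex from 0 to 22 (I), 0 to 1 (II), 0 to 1 (III), 0 to 6 (IV), 0 to 4 (V) and 0 to 3 (assembly factors). The members lower were 36 with DESeq2 (20, 2, 3, 4 and 6 in complexes I to V), 7 with upper-quartile scaling (0 in complex V and in the assembly factors), 6 with limma-voom (0 in complexes IV and V and the assembly factors), 5 with the replicate block (3 in complex I, 0 in IV and V) and 2 with library size only (1 in complex I, 0 in IV, V and the assembly factors). RLE scaling gave 1 in complex II and 2 in complex V, and no filter gave 1 in complex II. The cause was not tested.

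Signs turned with library size only for Atp5b (0.00117), Cox7a2 (0.0655), Cox7a2l (0.15), Ndufs1 (0.0446), Sdhd (0.0508) and Ndufaf5 (0.24). Ndufaf5 was also positive with upper-quartile scaling (0.0716) and without chow replicate 1 (0.07), high fat - high sugar replicate 2 (0.11) or replicate 3 (0.03), while with the libraries left out in turn it ranged from -0.20 to 0.11. Atp5s ranged from -0.0134 (without replicate 2 of that diet) to 0.46. All 11 members past the threshold lost it without chow replicate 3, and 10 of them, all but Ndufb4, without chow replicates 1 or 2 or high fat - high sugar replicate 1. Of the 13 settings, Ndufa12, Atp5h and Ndufb6 kept the call in 4, Ndufaf6 in 5 and Cox5b and Ndufs7 in 6. Ndufb11 kept it in 7, Ndufv3 and Ndufa5 in 8, Uqcr11 in 9 and Ndufb4 in 12.

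The labels do not say that replicate numbers pair the libraries. Same-numbered libraries had correlations of -0.25, -0.17 and 0.03 in their deviations from the group means. Such deviations cancel out within a group, so these values cannot decide whether libraries were paired. The block result rests on a shared number only. Depth limits the isoforms with few counts, which the filter left out, while each tested member had 14 counts or more in every library.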
